A study of Mus musculus with 96 samples.

Results

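Nupr1 and 9 genes of the integrated stress response, namely Atf4, Atf5, Ddit3, Chac1, Asns, Psat1, Trib3, Ddit4 and Sesn3, were followed across 96 single cells of 48 sister pairs. The members were the rows of the count table that carry these gene symbols, 10 of 55487 genes, with no threshold on a measured value. The symbols matched 11 rows. The second row named Ddit3 is an overlapping locus on chromosome 10 (GRCm38 chr10:127290829-127293753), had a count in 1 cell and was not used. All 10 members passed the filter on low counts, which asked for a count of at least 10 in 10% of the cells and was met by 14463 genes.

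The cells were the 2 daughters of each of 48 divisions of horizontal basal cells (HBCs), which are reserve stem cells on the basement membrane of the mouse olfactory epithelium (OE). All cells formed 1 group: wild-type HBCs from the OE of adult mice aged 6 to 8 weeks, dissected 2 days after methimazole, a compound that destroys the OE and activates HBCs, then grown ex vivo. The study states that the culture coating was switched from Tropoelastin to Fibronectin to promote attachment and division. Each daughter was drawn into a mouth pipette with its sister noted, lysed with ERCC spike-in (synthetic RNA standards), and its poly(A) RNA was amplified by the G&T-seq method. Neither the mouse nor the culture of a cell is labelled, all cells had the same injury and culture, and there is no unstressed reference group, so the 96 cells were treated as 1 sample without replicates, no p-values were computed, and correlations and shares describe these cells only.

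In the integrated stress response, kinases that sense amino acid shortage, unfolded protein in the endoplasmic reticulum (ER), haem shortage or viral RNA phosphorylate the translation factor eIF2. Most translation then slows, while the mRNA of the transcription factor ATF4 is translated more. ATF4, often with its partner CHOP (the product of Ddit3), raises transcription of genes for amino acid uptake and synthesis, tRNA charging and feedback control. Because ATF4 is controlled at translation, its own mRNA is only part of its activity.

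ATF4 binds composite elements in which a partial C/EBP site meets a partial ATF/CRE site, and such a motif is shown here for the members that hold it. The letters TGATGNAA, searched on both strands (TTNCATCA on the other), were found near the start of 4 of the 10 genes in the RefSeq promoter windows, which span 250 bases before to 50 bases after each start (GRCm38.p6). In all, 1304 of 32851 windows (3.97%) and 4.51% of genes held a match. No match was found in the windows of Atf4, Atf5, Ddit3, Ddit4, Psat1 and Sesn3. The 4 runs of 30 bases are given 5′ to 3′ on the strand of the gene, with the match in capitals.
Nupr1: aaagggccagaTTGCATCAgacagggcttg
Chac1: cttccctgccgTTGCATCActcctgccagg
Asns: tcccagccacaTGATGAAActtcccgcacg
Trib3: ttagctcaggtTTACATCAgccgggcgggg
The Nupr1 run lies on the minus strand at chr7:126625562-126625591, with the match beginning 110 bases before the RefSeq start and inside an exon of a longer annotated transcript. The Chac1 run lies on the plus strand at chr2:119351038-119351067, upstream of the gene, with the match beginning 193 bases before the start. The Asns run lies on the minus strand at chr6:7693214-7693243, with the match beginning 23 bases before the RefSeq start, within the first exon of another annotated transcript. The Trib3 run lies on the minus strand at chr2:152344028-152344057, where the match begins at base 15 of the RefSeq transcript and the longer part of the run lies before the gene start given in the deposited tables. Of these 4 genes, Asns and Nupr1 were among the more abundant members and Chac1 and Trib3 were the scarcest.

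Between 29454150 and 44849003 counts per cell fell on genes, and 11403 to 14632 genes had a count. ERCC transcripts took 1.06% to 5.75% of counts and mitochondrial genes 1.12% to 3.84% of gene counts. A pair of fully aligned 150-base reads contributed 4 counts to this table and a shorter alignment fewer, so fewer than 10 counts are only a few fragments. The HBC markers Trp63, Krt5 and Krt14 were counted in all 96 cells. Of 10 markers of other OE cells, 10 had a median of 0, and of 10 markers of other tissue cells 9 did. Cell 4-2 (daughter 2 of pair 4) stood apart, with the lowest sum of the 3 HBC markers of the 96 cells (5869 normalized counts, against a median of 250117) and the highest mitochondrial share. Some results that rest on it are given with and without pair 4, and the others include pair 4. File names place the cells in 12 sets of 8, whose handling is not stated. Values within sets or without single sets are given beside pooled ones.

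Levels are given as counts normalized by ERCC size factors. They and the sister ratios take the added amount of ERCC as equal in all cells, which was not tested. Levels are compared between genes as TPM, which corrects for transcript length. Atf4, the central transcription factor of the response (GRCm38 chr15:80255184-80257541), was counted in all 96 cells. Its normalized count ranged from 298 to 25625 with a median of 6012 (mean 7154 ± 4955, SD over cells), and 92 cells had 1000 or more. Atf4 mRNA was therefore abundant in nearly every cell. Atf5 (chr7:44812256-44816658), a related factor under the same translational control, had a median of 67.8, reached 2259, and had no count in 30 cells. Ddit3 (chr10:127290774-127296288), whose product CHOP promotes cell death under lasting stress, was absent from 40 cells and had 10 or more counts in 46. Its median was 8.4 and its highest value 33623, in cell 22-2, with 8671 in the next cell. That 1 cell held 41.4% of all normalized Ddit3 counts.

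Nupr1 (chr7:126623249-126630861), a small stress-induced chromatin cofactor that acts with ATF4 and CHOP, was counted in all 96 cells and had 10 or more counts in 91. Its values ran from 4.81 to 126205 around a median of 1391, so single cells spanned more than 4 powers of 10. The highest cells were 4-2 with 126205, 22-2 with 63710 and 38-2 with 34515. The 5 highest cells held 52.95% of all Nupr1 counts, and cell 4-2 alone held 25.7%. The coefficient of variation over cells was 2.90, and 2.13 without pair 4. Ddit3 (4.28) and Chac1 (2.91) varied more, as did Trib3 (2.56) without pair 4, and Psat1 (0.479) and Atf4 (0.693) varied least.

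Among the enzymes, Asns (asparagine synthetase, chr6:7675169-7693254) and Psat1 (a serine synthesis enzyme, chr19:15904678-15947337) were counted in every cell. Asns had a median of 6222 and ranged from 27.9 to 32745, and Psat1 had a median of 15660 and ranged from 560 to 42021. Both lay within a narrower band than the other members apart from Atf4. Chac1 (chr2:119351229-119354381), which degrades glutathione, fell into cells near 0 and cells at high levels. It had no count in 36 cells, 35 cells lay above 0 and below 30, no cell lay from 30 to 100, and 25 cells had 100 or more, up to 14395 in cell 47-2. The gap ran from 24.3 to 175 normalized counts, and 12 of the low cells held exactly 4 counts, the yield of a single fully aligned fragment.

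Of the feedback and growth inhibitors, Trib3 was as scarce as Chac1 and the others were not. Trib3 (chr2:152337422-152344032), a pseudokinase that restrains ATF4 and AKT, had no count in 39 cells, lay above 0 and below 30 in 23 cells, from 30 to 100 in 2 and had 100 or more in 32. Its median was 4.23, and it reached 9712 in cell 22-2. Ddit4 (chr10:59949669-59951834), the mTORC1 inhibitor also called REDD1, had a median of 735, a range of 0 to 14119 and 10 or more counts in 90 cells. Sesn3 (chr9:14275067-14333101), a sestrin that also restrains mTORC1 and is a known FOXO target, had a median of 552, a range of 0 to 3440 and 10 or more counts in 81 cells.

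**Figure D1:**
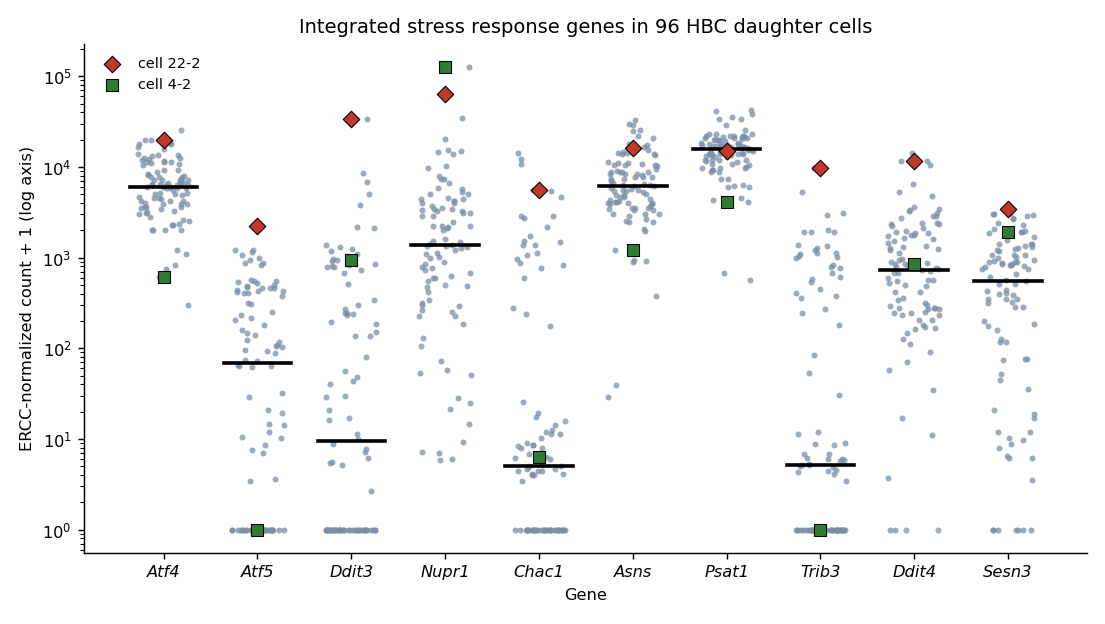
ERCC-normalized count plus 1 (log axis) of each member in each of the 96 cells (points), with the median (bar), cell 22-2 (red diamond) and cell 4-2 (green square). Atf4 and Psat1 form single bands, with medians of 6012 and 15660. Asns has a median of 6222, with 1 cell above 0 and below 30 and 1 cell from 30 to 100. Chac1 has no cell from 30 to 100 and Trib3 has 2. Cell 22-2 has the highest normalized count of all cells in Ddit3, Trib3, Atf5 and Sesn3, but not the highest TPM of Sesn3.

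In TPM the order of the medians was Psat1 (286), Atf4 (160), Asns (149), Nupr1 (72.9), Ddit4 (18.4), Sesn3 (2.62), Atf5 (1.40), Ddit3 (0.366), Chac1 (0.118) and Trib3 (0.0905). Only 1 pair of neighbours in that order, Ddit4 and Sesn3, had quartile ranges over cells that did not overlap. Atf4 was above Asns in 49 of 96 cells, and Sesn3 above Atf5 in 48, so neither pair could be ordered. Nor could the scarcest members. Atf5 was above Ddit3 in 35 cells (14 equal), Ddit3 above Chac1 in 43 (17 equal) and Chac1 above Trib3 in 44 (19 equal). Psat1 was above Atf4 in 76 cells and Nupr1 above Ddit4 in 73.

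Sister cells were compared by the ratio of the higher to the lower normalized count, each plus 1, at the cutoff of 1.5 that the study applied to H3.3 transcripts. Nupr1 differed by 1.5-fold or more in 34 of 48 pairs (70.8%, exact Clopper-Pearson 95% interval 55.9% to 83.0%), with a median ratio of 2.67. By role, the transcription factors Atf4, Atf5 and Ddit3 passed the cutoff in 27, 41 and 40 pairs, the enzymes Asns, Psat1 and Chac1 in 29, 22 and 40, and the inhibitors Trib3, Ddit4 and Sesn3 in 37, 36 and 39. With ERCC scaling the lowest share was that of Psat1 (45.8%, interval 31.4% to 60.8%) and the highest that of Atf5 (85.4%, interval 72.2% to 93.9%). Intervals and shares cover counting of pairs only, since reads without molecular identifiers are not independent molecules.

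The median over all 14463 genes tested was 68.8% of pairs, and 3 members (Atf4, Asns and Psat1) lay below it. ERCC transcripts, which no cell makes, reached the same cutoff in 20.8% to 77.1% of pairs among the 7 transcripts within 2-fold of the median TPM of Nupr1. For Atf4 the corresponding 7 transcripts gave 20.8% to 60.4%, and for Psat1 5 transcripts gave 31.2% to 60.4%. Asns and Ddit4 also lay inside the range of their spike-ins, and Sesn3 (81.2%) lay below its 4 spike-ins (83.3% to 87.5%). For these 6 members the share of pairs past the cutoff was not above that of all spike-ins of like abundance, and the other 4 members had no spike-in within 2-fold.

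The largest ratios were far beyond the cutoff. For Nupr1 they were found in pair 42, with 5.99 in daughter 1 and 4191 in daughter 2, and in pair 41, with 3541 and 4.97. For Ddit3, Trib3 and Chac1 the largest difference was in pair 22, where daughter 1 was listed at 0 for all 3 genes and daughter 2 had 33623, 9712 and 5511. A sister at 0 was common for these genes. Ddit3 had 10 or more counts in both sisters of 11 pairs, in a single sister of 24 and in neither of 13. The corresponding numbers were 7, 22 and 19 for Trib3, and 8, 17 and 23 for Chac1. By contrast Nupr1 and Ddit4 each passed 10 counts in both sisters of 43 pairs.

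**Figure D2:**
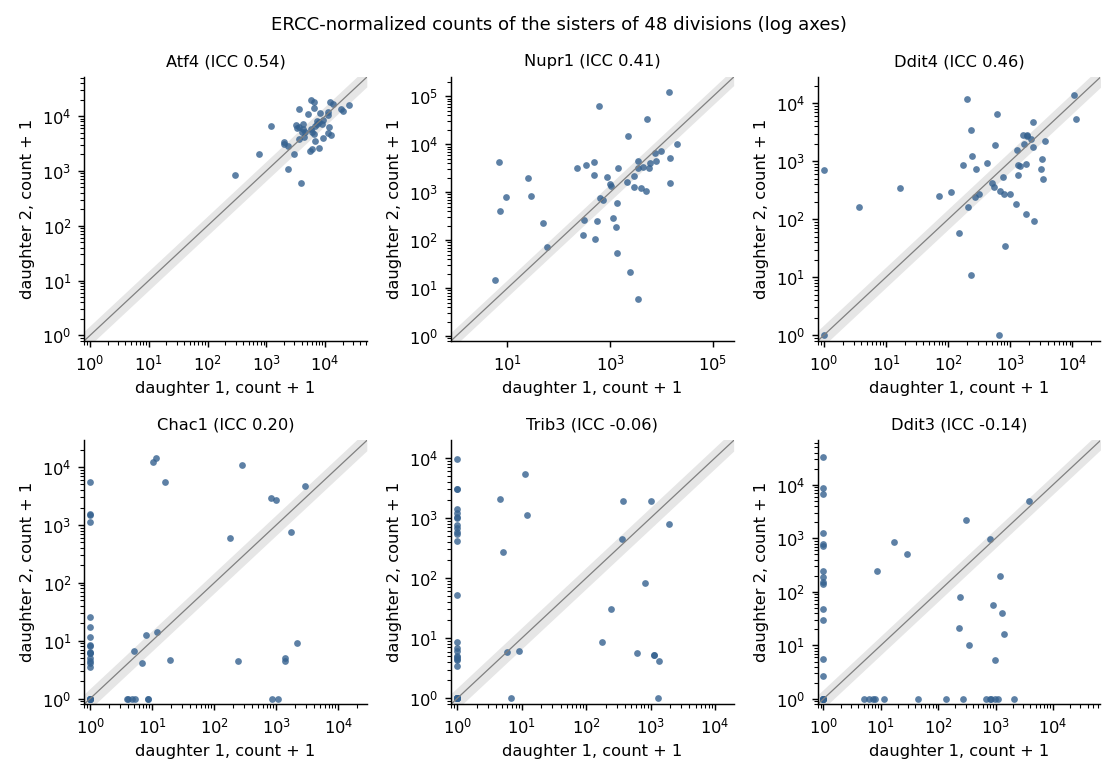
ERCC-normalized count plus 1 of daughter 2 against daughter 1 for 6 members (log axes), 1 point for each of 48 pairs, with the line of equality and a grey band of ratios under 1.5. Atf4 sisters lie along the line, Nupr1 and Ddit4 scatter around it over several powers of 10, and Ddit3 and Trib3 have many points on an axis, with a single sister counted.

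Likeness of sisters relative to the spread over all cells was measured by the intraclass correlation (ICC) of log2(CPM + 1), which is 1 when sisters are identical and 0 when they are no more alike than other cells. The ICC was 0.54 for Atf4, 0.46 for Ddit4, 0.42 for Asns, 0.41 for Nupr1, 0.34 for Psat1, 0.30 for Sesn3, 0.20 for Chac1, 0.12 for Atf5, -0.057 for Trib3 and -0.14 for Ddit3. A value of 0.5 or more was reached by 1 of the 10 members, beside 4.40% of all genes tested. The median of the members was 0.32 and that of all genes 0.11, and 2 members (Trib3 and Ddit3) lay below the latter. Ddit4 also reached 0.5 without pair 22 (0.51), without set 2 (0.53) and without set 6 (0.53), and Nupr1 without set 11 (0.50), while without set 4 Atf4 had 0.46 and no member reached 0.5. Both sisters of every pair lay in the same set of 8 cells, so likeness of sisters and likeness within a set cannot be told apart. Among the 24 cells with the most transcripts of a gene, both sisters of 7 pairs were found for each of Nupr1, Atf4 and Asns, of 6 for Ddit4, of 5 for Chac1, of 4 for each of Atf5 and Psat1, of 3 for Sesn3, and of 2 for each of Ddit3 and Trib3. The median was 4 over the 11485 genes that 33 cells or more held at a count of 10.

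**Figure D3:**
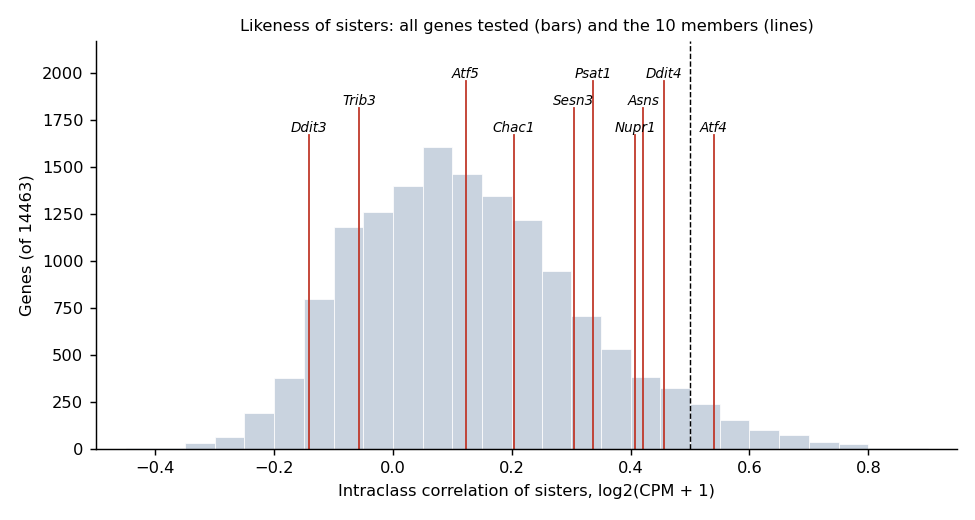
Distribution of the intraclass correlation of sisters over the 14463 genes tested (bars, in steps of 0.05) with the 10 members as red lines and the threshold of 0.5 dashed. Atf4 lies to the right of the threshold, Ddit4, Asns, Nupr1, Psat1 and Sesn3 lie in the upper part of the distribution, and Trib3 and Ddit3 lie below 0.

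Whether the members rose and fell together was described by Spearman's rho of log2(CPM + 1), the share of gene counts in each cell, over 96 cells. All 45 combinations of members had a median rho of 0.15 (lowest -0.093, highest 0.48), and 6 reached 0.3. In all, 0.520% of combinations of any genes tested reached 0.3, and 0.662% did among the 11485 genes that had a count of 10 in 33 cells or more. The strongest were Atf4 with Chac1 (0.48), Nupr1 with Ddit4 (0.45) and Asns with Psat1 (0.43), followed by Asns with Atf5 (0.35), Atf4 with Psat1 (0.32) and Atf4 with Asns (0.30). After subtraction of the median of each set of 8 cells, 4 combinations reached 0.3, namely Atf4 with Chac1 (0.47), Asns with Psat1 (0.44), Asns with Atf5 (0.32) and Trib3 with Chac1 (0.31), and the median was 0.14. Points of these correlations share library, depth and, in sisters, a mother cell. Most members were weakly related, and values this low between sparse genes carry little information on single combinations.

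Differences between sisters leave out what both sisters share. Over the 48 differences, daughter 2 minus daughter 1, the 45 combinations had a median of 0.17 and 10 reached 0.3, beside 2.11% of combinations of all genes and 2.17% among those 11485 genes. Trib3 took part in 5 of the 10. Its differences followed those of Chac1 (0.53), Atf4 (0.45), Psat1 (0.43), Ddit4 (0.36) and Asns (0.32). Atf4 differences also followed those of Atf5 (0.42) and Chac1 (0.41), Chac1 differences those of Ddit3 (0.36) and Atf5 (0.32), and Ddit4 differences those of Atf5 (0.31). Atf4 and Atf5 differed in the same direction in 34 pairs and in opposite directions in 10, and Trib3 and Psat1 in the same direction in 30 and in opposite directions in 10. Without pair 22, which holds the cell with the highest Ddit3, the median was 0.16 and Trib3 had 0.50 with Chac1 and 0.50 with Psat1. The number at 0.3 or more was again 10, but the set changed. Chac1 with Atf5 (0.28) and Ddit4 with Atf5 (0.27) left it, and Asns with Psat1 (0.31) and Ddit4 with Psat1 (0.34) entered. With ERCC scaling and all pairs, Atf4 with Chac1 (0.25) and Chac1 with Atf5 (0.23) lay below 0.3. Asns with Atf5 (0.32) and Asns with Psat1 (0.34) then lay above it.

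Nupr1 took part in none of the 10 combinations at 0.3 or more. Its sister differences had rho between -0.066 (Ddit3) and 0.19 (Atf4) with the other 9 members, and the relation with Ddit4 over cells (0.45) was 0.29 within sets and 0.15 over sister differences. Nupr1 and Ddit4 rose in the same sister in 28 pairs and in opposite sisters in 19.

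**Figure D4:**
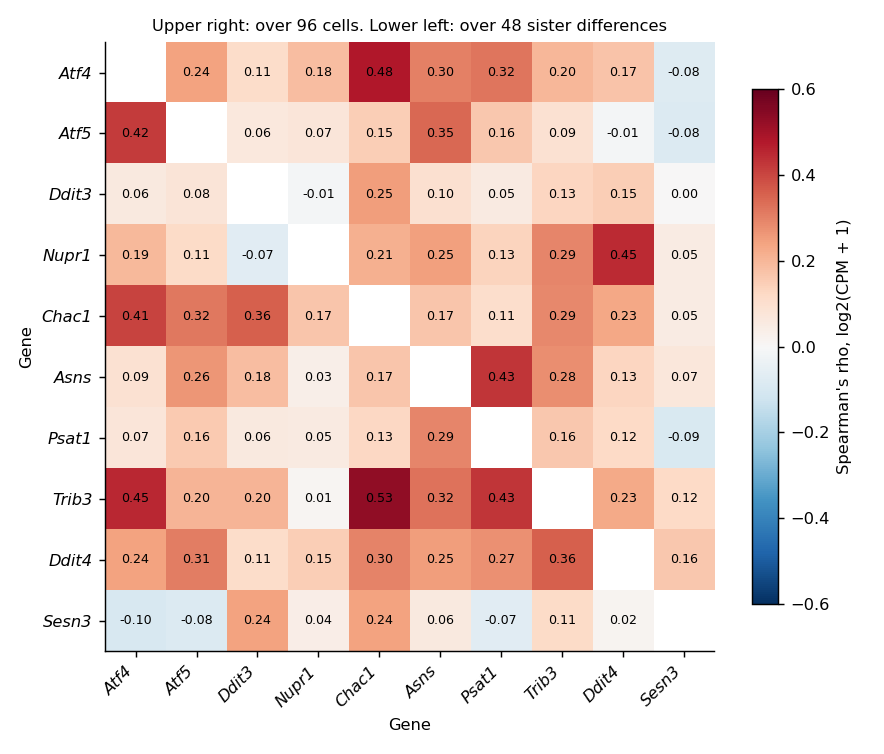
Spearman's rho of log2(CPM + 1) for each combination of the 10 members, over 96 cells above the diagonal and over 48 sister differences below it (colour scale from -0.6 to 0.6). Most values of Trib3 are stronger below the diagonal, up to 0.53 with Chac1. Those with Nupr1 (0.29 above, 0.014 below) and Sesn3 (0.12 above, 0.11 below) are not. The values of Nupr1 fall from 0.45 with Ddit4 above the diagonal to at most 0.19 below it.

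The 3 scarce stress genes were also compared by detection alone. Chac1 had 10 or more counts in 18 of the 36 cells with Trib3 at that level and in 15 of the other 60, and Trib3 in 22 of the 46 cells with Ddit3 and in 14 of the other 50. For Chac1 beside Ddit3 the numbers were 19 of 46 cells and 14 of the other 50. All 3 genes were seen in 14 cells and none of them in 26. Such counts were not made for other genes of like scarcity, so they have no reference here. Detection of scarce genes also varies with library quality, and rho with the number of genes detected was 0.17 for Chac1, 0.015 for Trib3 and -0.00085 for Ddit3.

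Of the 9 other members, only Ddit4 reached a rho of 0.3 with Nupr1 over cells, while 132 of 14462 genes (0.913%) did. Trib3 (0.29) and Asns (0.25) came next, and Ddit3 (-0.011) was last. Without pair 4, in which cell 4-2 has the highest Nupr1 with low Atf4, 2 members reached 0.3 (Ddit4 0.45 and Trib3 0.30). The 10 genes most like Nupr1 were Wbp2 (0.53), Kdm7a (0.47), Plin3 (0.46), Ddit4 (0.45), Twf1 (0.44), Eif1 (0.43), AC113595.1 (0.43), Ypel5 (0.42), Uvrag (0.41) and Elf3 (0.41). Wbp2 encodes a transcriptional coactivator, Kdm7a a histone demethylase, Plin3 a lipid droplet protein, Twf1 an actin-binding protein, Eif1 a factor that selects the start codon, Uvrag an autophagy protein and Elf3 an epithelial transcription factor. Over sister differences Wbp2 (0.48) and Plin3 (0.35) stayed above 0.3, and the other 8 lay between 0.10 and 0.28.

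The 5 genes with the most negative rho were Slc39a6 (-0.49), a zinc transporter, Tsr1 (-0.48) and Mybbp1a (-0.48), both of ribosome production in the nucleolus, Fat1 (-0.46), an atypical cadherin, and Supt16 (-0.45), a subunit of the histone chaperone FACT. Over sister differences Slc39a6 had -0.47, Tsr1 -0.30 and the other 3 between -0.26 and -0.15. With ERCC scaling in place of CPM these 5 values lay between -0.38 and -0.23, and those of the 10 positive genes between 0.42 and 0.53.

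For the other members the 3 genes of highest rho over cells were as follows. Atf4 was followed by Mthfd2 (0.52), a mitochondrial folate enzyme and known ATF4 target, Chac1 (0.48) and the ribosomal pseudogene Rpl9-ps6 (0.45). Chac1 was followed by Atf4 (0.48), Vldlr (0.39), a lipoprotein receptor, and Eif4ebp1 (0.38), a translation repressor under ATF4. Trib3 was followed by Aars (0.40), alanyl-tRNA synthetase, Gdf15 (0.37), a stress-induced hormone, and Aph1b (0.36). Asns was followed by Hax1 (0.47), Eif4ebp1 (0.47) and Gars (0.44), and Psat1 by Asns (0.43), Tmem107 (0.42) and Rpl3 (0.41).

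Ddit4 was followed by Pagr1a (0.45), Nupr1 (0.45) and Cdkn1b (0.41), a cell cycle inhibitor. Sesn3 was followed by Ugdh (0.48), Otx2os1 (0.42) and Pgrmc1 (0.42), and Atf5 by Eloa (0.39), Tmem189 (0.39) and Itpr3 (0.38). Ddit3 was followed by Aloxe3 (0.53), Gm8797 (0.50) and Ubb-ps (0.46), of which the last is a ubiquitin pseudogene whose reads may belong to its parent gene.

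In 12 companion lists of pathway genes, 117 of 119 genes could be tested, and 3 reached 0.3 with Nupr1 over cells (2.56%, beside the 0.913% of all genes): Xbp1 (0.39), a transcription factor of the unfolded protein response, Nars (0.36), asparaginyl-tRNA synthetase, and Cebpb (0.31), a partner of ATF4 and CHOP. None reached -0.3. This count depended on the scaling and the cells used, being 9 without pair 4, 12 with ERCC scaling and 3 to 11 when each set of 8 cells was left out in turn. The median rho with Nupr1 was 0.18 for 14 other ATF4 and CHOP targets, 12 of them above 0, and 0.18 for 8 hypoxia genes and 0.20 for 5 glucocorticoid genes, all of them above 0. It was 0.13 for 15 ER chaperones and genes of the unfolded protein response, and 0.094 for 12 tRNA synthetases under ATF4. For 8 other cytosolic synthetases it was -0.10, with none above 0, and for 12 eIF2 kinases, eIF2B and phosphatase subunits it was -0.057. The median over all genes was -0.00057.

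By list, the genes nearest to and farthest from Nupr1 were these. Among regulators of eIF2, the phosphatase subunit Ppp1r15b had 0.13, Eif2b5 0.10 and Eif2s1, the phosphorylated subunit itself, -0.29. Among enzymes, Gpt2 had 0.297 and Aldh1l2 0.27, and Phgdh, the first enzyme of serine synthesis, -0.23. Among transporters, Slc6a9 had 0.28, Slc3a2 0.24 and Slc7a1 -0.23. Cars (0.25) followed Nars among the synthetases under ATF4 and Lars had -0.18, while Vars (-0.0068), Rars (-0.041) and Hars (-0.20) bounded the other synthetases.

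Ero1l, an ER oxidase under CHOP, had 0.295 with Nupr1 and the death receptor Tnfrsf10b -0.13. Herpud1, of ER protein degradation, had 0.27 and the chaperone Canx -0.17. Vegfa (0.23), Ankrd37 (0.23) and Adm (0.028) bounded the hypoxia list, and Per1 (0.29), Klf9 (0.27) and Zbtb16 (0.017) the glucocorticoid list. The genes nearest to and farthest from Nupr1 in the remaining lists were Ccng2 (0.22), Irs2 (0.12) and Foxo1 (-0.14) for FOXO, Phlda3 (0.11), Trp53inp1 (0.036) and Ccng1 (-0.19) for p53, and Prc1 (0.19), Aurka (0.11) and Cdc20 (0.046) for proliferation.

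The companion lists were also set beside 3 other members, Atf4, Trib3 and Chac1, but not beside Ddit3, Asns, Ddit4, Atf5, Sesn3 or Psat1. The comparison planned for these lists was that with Nupr1. The genes named in this paragraph were chosen after their values were seen. With Atf4 over cells, 4 of 12 tRNA synthetases under ATF4 reached 0.3 (Tars 0.37, Lars 0.36, Sars 0.35 and Nars 0.32) and none of the 8 other synthetases, beside 0.871% of all genes. This number was 2 without set 6, 3 or 4 without any other set and 9 with ERCC scaling, while it was 0 for the other synthetases each time. Of 10 genes of amino acid and one-carbon synthesis 2 did (Mthfd2 0.52 and Shmt2 0.41), of 9 amino acid transporters 1 (Slc7a5 0.31), of 14 other targets 2 (Eif4ebp1 0.39 and Gdf15 0.32), and of 15 ER genes 1 (Herpud1 0.35). No gene did among the kinases and eIF2 subunits, hypoxia, glucocorticoid, FOXO, p53 and proliferation lists. With Trib3 over cells, 2 synthetases under ATF4 (Aars 0.40 and Yars 0.30) and Gdf15 (0.37) reached 0.3, beside 0.118% of all genes. With Chac1, 3 of the 14 other targets (Vldlr 0.39, Eif4ebp1 0.38 and Sesn2 0.31) and the hypoxia gene Vegfa (0.31) did, beside 0.373%.

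Over sister differences, 5 of the 12 synthetases under ATF4 reached 0.3 with Trib3, namely Sars (0.50), Aars (0.36), Yars (0.35), Nars (0.32) and Tars (0.30), and none of the 8 others, beside 1.83% of all genes. Their medians were 0.27 and 0.014. The number was 1 without set 1, 3 without pair 4 or any of sets 5, 6 and 12, and 4 to 6 without any other set, whereas the median lay between 0.24 and 0.30 for the synthetases under ATF4 and between -0.013 and 0.11 for the others. The other companion genes at 0.3 or more with Trib3 were Herpud1 (0.45), Stc2 (0.36), Slc7a5 (0.33), Ccng1 (0.32) and Phgdh (0.31). With Chac1, 2 synthetases under ATF4 (Nars 0.39 and Tars 0.34), Ccng1 (0.35) and 4 of the 14 other targets reached 0.3, beside 1.96% of all genes, and with Atf4, 1 synthetase, 3 of the other targets, Slc7a5 (0.36) and Mthfd2 (0.32) did, beside 2.12%. In each of these 3 comparisons the median of the synthetases under ATF4 was above that of the other cytosolic synthetases, and these lists do not share genes but do share cells.

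Cell 22-2, in which the largest sister differences of Ddit3, Trib3 and Chac1 were found, was highest of 96 cells in Ddit3 (33623), Trib3 (9712), Atf5 (2259) and Sesn3 (3440), and second in Nupr1 (63710), Atf4 (20031) and Ddit4 (11691). It ranked 4 in Chac1 (5511), 12 in Asns (16088) and 52 in Psat1 (15149). Its sister 22-1 had 592 of Nupr1, 5796 of Atf4, 204 of Ddit4, 91.8 of Atf5, 16.0 of Sesn3, 10595 of Asns and 22219 of Psat1. In 9 of the 10 members cell 22-2 was higher than its sister, by ratios (with 1 added to each count) from 1.52 for Asns to 107 for Nupr1 and 203 for Sesn3 among the genes counted in both, and in Psat1 its ratio was 0.682. These ranks and ratios are of normalized counts. In TPM cell 22-2 was also highest in Ddit3 (1261), Trib3 (159) and Atf5 (41.2). It was not highest in Sesn3 (12.5 TPM, against 30.5 in cell 20-1), and its Atf4 was 384 TPM, against 490 in cell 38-2. The library of cell 22-2 had 14065 genes, a mitochondrial share of 2.94% (rank 5 of 96) and an ERCC share of 2.00%, and the part of these in its values was not tested. It was highest of all cells in 547 genes, the third largest number of any cell.

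Cell 47-2 was the only other cell among the 24 highest in 9 members, with 14395 of Chac1, 6842 of Ddit3 and 5299 of Trib3, where its sister had 10.3, 0 and 10.3. Both sisters of pair 47 had high normalized counts of Atf4 (13651 and 16543) and Psat1 (42021 and 33824). Cell 47-1 had the smallest size factor of all cells (0.387). Its TPM was 137 for Atf4 and 287 for Psat1, near the medians over cells of 160 and 286. Over all cells, 15 were among the 24 highest in no member, 19 in 1, 23 in 2, 18 in 3, 4 in 4, 5 in 5, 8 in 6, 2 in 7 and 2 in 9. These ranks are of normalized counts, which are larger where the size factor is small. Such numbers were not computed for other sets of 10 genes, so they cannot be read as a trait of the members.

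Cell 4-2 showed a different combination. It had the most Nupr1 of all cells (126205, against 13864 in its sister), while Atf4 (603, rank 95), Psat1 (4101, rank 94) and Asns (1200, rank 90) were near the lowest of all cells and Trib3 and Atf5 were at 0. Ddit4 (842) was near the median, and Sesn3 (1927, rank 13) and Ddit3 (952, rank 15) were above the upper quartile. Its Krt14 was 458 against a median of 127894, and its Krt5 4481 against 99415, while Trp63 was 930, so that HBC keratins were low but counted. Its sister 4-1 had 132227 of Krt14 and 106802 of Krt5. Both sisters were low in Mki67 (79.5 in 4-2 and 122 in 4-1, against a median of 15097) and high in Cdkn1a, a cell cycle inhibitor (70509 and 65419, against 4092). Its library had 11654 genes (rank 95) and the highest mitochondrial share, and the part of these in its values was not tested.

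Pair 42, with the largest ratio of Nupr1, differed little in Atf4 (9274 and 8456) and Asns (5889 and 6314). Daughter 2, with the high Nupr1, also had more Ddit4 (1935 against 563), Chac1 (2867 against 829) and Trib3 (406 against 0), and less Ddit3 (19.9 against 230).

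**Figure D5:**
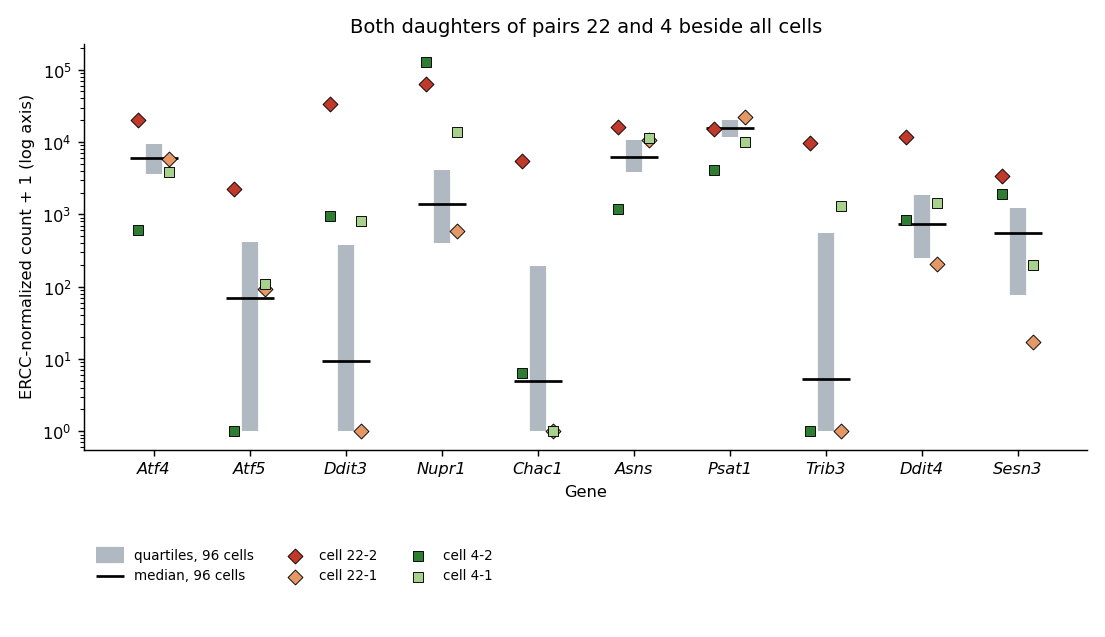
ERCC-normalized count plus 1 (log axis) of the members in both daughters of pair 22 (diamonds) and pair 4 (squares), beside the median and quartiles of 96 cells. Cell 22-2 lies above the upper quartile in 9 of 10 members, while cell 4-2 has 126205 of Nupr1 but lies below the lower quartile in Atf4, Asns and Psat1.

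The members were also set beside genes that the study followed in these cells. With Trp63, the transcription factor that marks and maintains HBCs, rho over cells lay between -0.17 (Ddit3) and 0.26 (Psat1), and over sister differences between -0.20 (Sesn3) and 0.031 (Chac1). With the proliferation gene Mki67 it lay between -0.24 (Asns) and 0.23 (Ddit4) over cells. Over sister differences with Mki67 it lay between -0.23 (Ddit3) and 0.24 (Psat1). With Krt14 it lay between -0.27 (Nupr1) and 0.26 (Psat1) over cells, and between -0.35 (Sesn3) and 0.13 (Atf5) over sister differences. With the summed H3.3 transcripts H3f3a and H3f3b, sister differences of Trib3 (0.33), Atf4 (0.31) and Chac1 (0.27) had the highest values and Asns (-0.28) the lowest, while over cells the values lay between -0.14 (Sesn3) and 0.15 (Psat1).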

How the data were processed

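Poly(A) RNA of 96 single cells was sequenced. Reads were trimmed by the authors with Trimmomatic 0.39, aligned as pairs with STAR 2.7.11a to GRCm38 with Ensembl release 100 and the ERCC sequences, and quantified with StringTie 2.2.1. The count table was deposited by the authors as raw whole numbers per gene, where 1 count stands for 75 aligned bases. The TPM values were deposited by the authors per cell, scaled with the ERCC transcripts included. The coverage values in the same deposited tables are mean depths per base and served only to find the unit of the counts.

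Size factors per cell, 0.387 to 1.93, were medians of ratios over the 22 of 92 ERCC transcripts counted in all cells. Levels and sister ratios used counts divided by these factors, with 1 added for ratios. Intraclass and Spearman correlations used log2(CPM + 1), where CPM is the share of gene counts. Genes with fewer than 10 counts in more than 90% of cells were left out. No test was run. The functions were checked on simulated data. No 2 of the 96 libraries were copies, with a highest r of 0.733 over 4560 combinations. Calculations used Python 3.11.15, numpy 2.4.6, pandas 2.3.3, scipy 1.17.1, matplotlib 3.10.9 and R 4.3.3. edgeR 4.0.16 and DESeq2 1.42.0 gave alternative scalings only.

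The members and the companion lists were chosen with earlier results of these data known. Named genes were the members, the 10 genes with the highest and 5 with the lowest rho with Nupr1, the 3 highest for each other member, and in each companion list the 2 highest and 1 lowest with Nupr1. Others are said to have been chosen after their values were seen. The pairs described were those with the largest sister ratio of Nupr1, Ddit3, Chac1 or Trib3, and pairs 4, 41 and 47 were added after their values were seen. Sister sharing was measured without regard to which daughter was numbered 1. Promoter windows are from RefSeq (GRCm38.p6), and transcripts that overlap them from GENCODE.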

Additional observations from a re-analysis of the deposited data

How the results depend on the processing

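The share of pairs with a Nupr1 ratio of 1.5 or more and the median correlations among members stayed near the values given under every alternative run, and no value past its threshold changed sign. When each set of 8 cells was left out in turn, the share for Nupr1 lay between 68.2% and 72.7%, the median rho among members between 0.12 and 0.17 over cells and between 0.12 and 0.22 over sister differences. Counts at a threshold were less stable. The number of members with an ICC of 0.5 or more was 2 with a pseudocount of 10, 2 without pair 22 and 0 to 2 without single sets. The number of members at 0.3 or more with Nupr1 was 2 with ERCC scaling, 2 with DESeq2 scaling, 2 with Pearson's r, 2 without pair 4, 0 after subtraction of set medians, 3 over pair means and 1 to 2 without single sets. For genes of the companion lists it was 12 with ERCC scaling, 7 with DESeq2 scaling, 7 with TMM, 6 with Pearson's r, 9 without pair 4, 9 after subtraction of set medians, 18 over pair means, 10 without the 8 pairs that hold the 10 cells with the fewest genes, and 3 to 11 without single sets. For synthetases under ATF4 it was 9 with Atf4 under ERCC scaling (2 to 4 without single sets), and 3 with Trib3 over sister differences without pair 4 (1 to 6 without single sets). The cause of these shifts was not tested. Leaving out pairs 4 and 22, all settings for the synthetases, and the restriction of ratios to pairs with 10 or more counts in a sister were chosen after seeing the data. For scarce members 1 fragment gives up to 4 counts, so their ratios near 0 are set by very few fragments.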

Other observations

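Genes outside the members also led in the cells described, and all genes named here were chosen after their values were seen. Cell 22-2 had 279557 normalized counts of Gpnmb, a lysosomal membrane glycoprotein, where the next cell had 46777 and its sister 6317. Fth1, the ferritin heavy chain, stood at 1122380 in this cell, 104008 in its sister and 270522 in the next cell. Ppargc1a, a coactivator of mitochondrial genes, reached 8289, and the phosphate transporter Slc20a1 reached 56536, against 0 and 3300 in the sister. Of the companion genes, cell 22-2 was the highest of 96 cells in Psph (17892), Mthfd2 (16747), Gpt2 (17281), Iars (15461), Cebpb (1328), Klf9 (7994) and Irs2 (4296). It was also highest in Slc7a3 (3168), Ccng2 (4636) and Qars (12261), the last of them from the list of other cytosolic synthetases.

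Cell 4-2, with the most Nupr1, had 172139 normalized counts of Cyp2a5, a cytochrome P450 of olfactory and liver tissue, where the next cell had 512. Sprr2f, a cornified envelope protein, stood at 89591, with 73.8 in the next cell, and Ugt2a1, an olfactory glucuronosyltransferase, at 115333, with 3753 in the next cell. Papss2 (30089), Sftpd (21638), Cyp2f2 (32706) and Fetub (44611) were also highest in this cell. What places these genes in 1 cell was not tested.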
